A study of Solanum lycopersicum with 12 samples.

Results

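Stems of tomato plants that had carried a small weight were compared at 6 h after the load began and at 10 days after it was taken off. The 6 libraries of weighted stems, 3 at each time, come from a series of 12 libraries, and the genes are the 6120 that appear in at least 1 of the 2 deposited tables. A gene listed in both tables was taken from the 10 day table. Of these genes, 5797 reached 1 FPKM in at least 3 of the 6 libraries and were tested. FPKM counts sequenced fragments relative to transcript length and to the size of the library, so levels can be compared between genes of different length.

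The plants were Solanum lycopersicum of the variety Ailsa Craig, grown in soil in a greenhouse with 16 h of light, 8 h of dark and daily temperatures of about 28 °C. Weighted plants bore a 3 g wooden clamp at the tip of stems that were 4.5 to 5 cm tall, for 48 h. Stems were taken at 6 h after the start of the load by the series' design text, while a label of the same libraries names 6 h after treatment. The second collection came 10 days after the end of the load. Each group had 3 biological replicates, and the labels do not say whether a library is 1 plant or a pool. Unweighted control stems of both times, also 3 libraries each, are used only to show how far a time difference was shared.

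The 2 groups differ in load, in plant age and in the day of harvest, and these cannot be told apart within weighted stems. The hour of harvest is not given. Genes entered the tables after the authors had compared weighted with control stems, and nearly all legible Q values in them lie under 0.05, so shares of genes below describe these tables and not the genome.

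A young stem lengthens where its cell walls are loosened, a process served by expansins, xyloglucan endotransglucosylases and pectin-modifying enzymes and promoted by auxin and gibberellin. When lengthening ends, xylem and fibre cells lay down secondary walls of cellulose, xylan and lignin. Touch, bending and loading of plants are widely known to shorten and thicken stems, with ethylene among the hormones involved. Abscisic acid, the hormone of water deficit, acts through receptors that inhibit protein phosphatases of type 2C, and it induces protective proteins such as dehydrins.

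The 2 times stood far apart in weighted stems. In a principal component analysis the first component separated the times and held 94.1% of the variance. Correlations of log2(FPKM + 1) between libraries of one time were 0.989 to 0.993 at 6 h and 0.980 to 0.997 at 10 days, against 0.732 to 0.773 between times. Library 3 of the 10 day group stood apart from the others on the second component (3.24% of the variance), at 21.35 against -10.91 and -9.47. It differed by at least 1 on the log2 scale from the mean of the other libraries of its group in 220 genes, against 28 and 19 genes for those libraries. Values without it are given below where it turned the balance of a list or moved a count by over 1.5 times. Tested genes reached 1 FPKM in 3 libraries, so a gene that is high in only 1 of the groups is no longer tested when a library of that group is left out. The tables give no read counts, and the depth of a library cannot be told from them.

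Of 5797 genes tested, 4557 (78.6%) differed between the times at an adjusted p under 0.05 in limma. At 10 days 2020 genes (34.8%) were higher and 2537 (43.8%) were lower, and 1052 (18.1%) had risen and 1211 (20.9%) fallen by at least 1 on the log2(FPKM + 1) scale. The balance of these larger changes turned with the processing: 1187 rose and 1030 fell with median ratio scaling, 1151 and 1060 with quantile normalization, and 1035 to 1053 against 1004 to 1017 without any one 6 h library. Without library 3 of the 10 day group 4573 of 5691 genes passed, 1967 higher and 2606 lower. The groups did not overlap in 4725 genes (81.5%). The median difference over all genes was -0.13, the middle 50% of genes lay between -0.85 and 0.66, and the extremes were -7.98 and 10.31. Another scaling moves that median, to -0.01 with median ratios and to -0.24 when the 10 day values are lowered to match the log2 ratios in the authors' deposited table, so list medians below are to be read against -0.13.

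The largest rise was that of a dehydrin, one of the proteins that accumulate in water deficit. The abscisic acid and environmental stress-inducible protein Solyc02g084850.3, a dehydrin, stood at 6.63, 12.4 and 3.94 FPKM at 6 h and at 10751, 11637 and 8319 FPKM at 10 days. Every 10 day library lay far above every 6 h library, and in 2 of those libraries no gene of the tables was higher. The difference was 10.31 (SE 0.34, limma adjusted p = 9.32e-07) on the log2 scale, and the values of this gene at both times depend on how damaged digits in its table were read. In control stems the gene went from 15.3 to 10767 FPKM, and the difference between the time changes, 0.92, did not pass (limma adjusted p = 0.0874).

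The next largest rises included a transcription factor gene and a pair of phosphatase genes. The homeodomain-leucine zipper gene Solyc01g096320.3, of a family of plant transcription factors, had 3.01, 3.15 and 4.47 FPKM at 6 h and 909.6, 925 and 436 FPKM at 10 days, a rise of 7.32 (SE 0.30, limma adjusted p = 1.82e-06). Its rise was larger than in control stems by 1.61 (limma adjusted p = 0.0102). The protein phosphatase 2C gene Solyc03g007230.4 had 1.88, 1.66 and 1.64 FPKM at 6 h and 458, 425 and 350.0 FPKM at 10 days, a rise of 7.23 (SE 0.12, limma adjusted p = 7.81e-08). Phosphatases of this type include the negative regulators of abscisic acid signalling. A second one, Solyc03g096670.3, rose by 5.87, and both rises exceeded those of control stems, by 1.48 and 0.98 (limma adjusted p = 0.00183 and 0.0382). Over the whole phosphatase 2C list the picture was mixed, with 7 of 19 genes higher, 7 lower and a median of -0.18; the list was added after values had been seen. The list of abscisic acid genes was also divided, with 2 of 4 higher and 2 lower.

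The remaining large rises came from several kinds of gene. SNF4 (Solyc06g068160.3), which carries the CBS domain of regulatory kinase subunits, had 0.05, 0.11 and 0.07 FPKM at 6 h and 116, 114 and 74.0 FPKM at 10 days. The transcription factor gene JA2 (Solyc12g013620.2), a NAC gene known in tomato for a role in stomatal closure, had 1.30, 0.890 and 1.04 FPKM at 6 h and 131, 112 and 49.4 FPKM at 10 days, a rise of 5.46 (SE 0.34). The chloroplast small heat shock protein Solyc03g082420.3, a chaperone, had 6.05, 5.23 and 7.06 FPKM at 6 h and 423, 424 and 192 FPKM at 10 days, a rise of 5.53. In each of these genes library 3 of the 10 day group was the lowest of its group and still far above all 6 h libraries. An alanine-glyoxylate aminotransferase gene (Solyc10g076250.2), an amino acid transporter gene (Solyc03g078150.3) and a copper amine oxidase gene (Solyc08g079430.3), whose enzyme class oxidises polyamines, rose by 5.64, 5.60 and 5.46. Only the amine oxidase and the aminotransferase among the 6 genes of this paragraph rose more than in control stems, by 1.65 and 0.94 (limma adjusted p = 0.00435 and 0.0289).

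The largest falls included a pair of xyloglucan endotransglucosylase genes, GAST1 and PRE4. The xyloglucan endotransglucosylase gene Solyc12g011030.3, whose enzyme cuts and rejoins the xyloglucan chains that tie cellulose together, had 312, 401 and 347 FPKM at 6 h and 0.660, 0.300 and 0.270 FPKM at 10 days. It fell by 7.98 (SE 0.14, limma adjusted p = 1.06e-07). A second gene of the family, Solyc09g092520.3, had 585, 668 and 666 FPKM at 6 h and 2.74, 2.84 and 1.04 FPKM at 10 days, a difference of -7.70. GAST1 (Solyc02g089350.3), first known in tomato as a gibberellin-stimulated transcript, had 402, 479 and 419.8 FPKM at 6 h and 2.43, 2.28 and 3.02 FPKM at 10 days, a difference of -6.93 (SE 0.11, limma adjusted p = 7.81e-08). PRE4 (Solyc05g007210.2), a small helix-loop-helix factor whose Arabidopsis relatives promote cell elongation, had 135, 113 and 133 FPKM at 6 h and was listed at 0, 0.190 and 2.13 FPKM at 10 days, a difference of -6.36.

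The other genes of the bottom 10 include glutamine synthetase (Solyc04g014510.3), the enzyme that assimilates ammonium. Its levels were 212, 262 and 249 FPKM at 6 h and 0.960, 0.940 and 1.02 FPKM at 10 days, a difference of -6.93 (SE 0.10). A hydrophobic seed protein gene (Solyc08g005960.2) went from 412, 454 and 405 FPKM to 0.450, 0.910 and 0.950 FPKM, and a mannose-binding lectin gene (Solyc07g062490.1) from 264, 523 and 272 FPKM to 3.07, 2.86 and 2.75 FPKM. Both xylanase inhibitor-like genes, Solyc04g076190.1 and Solyc01g079940.4, and the zinc-finger gene Solyc12g088390.1 differed by -6.97, -6.58 and -6.38. The groups of these 20 genes did not overlap, which was a condition for naming them. Of the 10 genes 8 fell further than in control stems. The differences of the time changes were -2.86 for GAST1, -4.34 for PRE4, -2.59 for the lectin and -2.61 for the zinc-finger gene. They were -1.63 and -1.69 for the xyloglucan endotransglucosylase genes, -1.63 for the seed protein gene and -1.23 for Solyc01g079940.4 (limma adjusted p = 0.0126, 0.0276, 0.0163 and 0.00599); that of PRE4 did not pass with a pseudocount of 0.1 (limma adjusted p = 0.107). For glutamine synthetase and Solyc04g076190.1 the differences, -0.17 and -1.48, did not pass (limma adjusted p = 0.849 and 0.160).

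**Figure D1:**
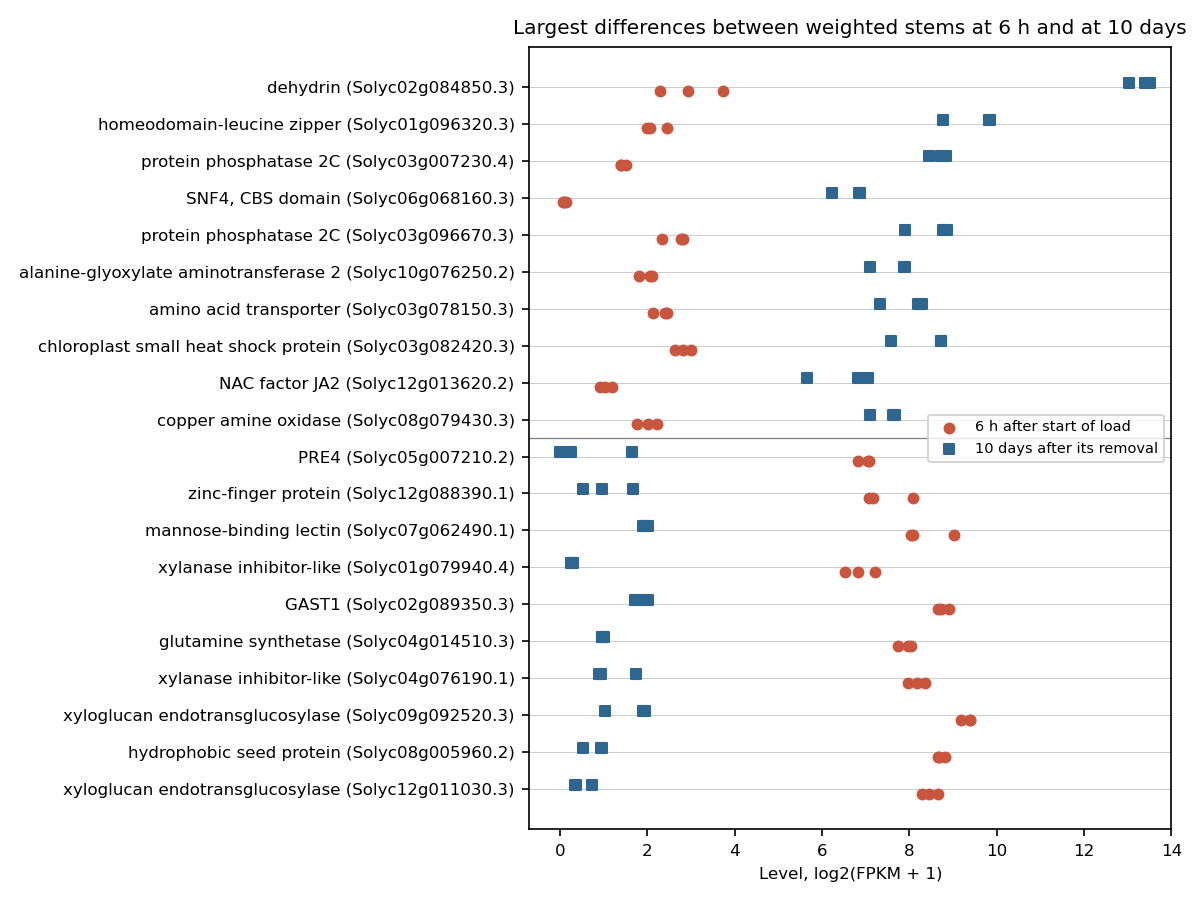
Levels of the 10 genes with the largest rises (upper block) and the 10 with the largest falls (lower block) in weighted stems, as log2(FPKM + 1), 1 point per library, circles for 6 h after the start of the load and squares for 10 days after its removal. No group overlaps the other in any row, and the dehydrin spans the widest distance, 10.31.

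Genes of wall loosening were mostly lower at 10 days. Of 15 expansin genes, whose proteins loosen walls without cutting them, 11 fell and 1 rose, with a median of -1.86. Without any one 6 h library only 11 met the filter, of which 7 fell and 1 rose (medians -1.26 to -1.61). The expansin gene Solyc04g081870.4 had 396, 295 and 343 FPKM at 6 h and 32.5, 37.1 and 33.8 FPKM at 10 days, a difference of -3.28 (SE 0.12, limma adjusted p = 1.31e-06), against -0.63 in control stems. The 1 riser, Solyc08g007770.4, went from 35.6 ± 4.16 to 104 ± 8.74 FPKM (mean ± SD, n = 3). Of 12 xyloglucan endotransglucosylase genes 8 fell and 1 rose (median -2.77), and without any one 6 h library 6 of 10 fell and 1 or 2 rose. The most abundant, Solyc01g099630.4, had 4100, 3558 and 4301 FPKM at 6 h and 64.8, 62.5 and 61.4 FPKM at 10 days, with values at both times that depend on the reading of damaged digits. The summed level of this family went from between 6176 and 6706 FPKM at 6 h to between 348 and 466 FPKM at 10 days. The riser, Solyc01g081060.4, went from 14.1 ± 2.45 to 81.6 ± 6.99 FPKM.

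Pectin enzymes divided. Of 34 genes 21 fell and 11 rose, with a median of -1.77. The pectate lyase gene Solyc06g083580.4, whose enzyme cleaves pectin, had 321, 236 and 341 FPKM at 6 h and 22.2, 23.9 and 11.7 FPKM at 10 days (difference -3.93, SE 0.27). The pectinesterase genes Solyc09g075330.4 and Solyc01g079180.4 both differed by -5.03. Another pectinesterase gene, Solyc01g091050.4, rose from 16.4 ± 6.52 to 88.7 ± 6.24 FPKM.

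Lignin genes moved the other way. Of 36 tested genes of lignin and phenylpropanoid synthesis 23 rose and 9 fell, with a median of 0.76. The 4-coumarate-CoA ligase gene Solyc03g025720.3, for an early step of the pathway, had 14.2, 15.2 and 16.4 FPKM at 6 h and 401, 383 and 134 FPKM at 10 days, a rise of 4.08 (SE 0.40, limma adjusted p = 7.16e-05). Cinnamoyl-CoA reductase Solyc06g068440.4 rose from 67.8 ± 11.1 to 382 ± 72.3 FPKM, and cinnamyl alcohol dehydrogenase Solyc01g107590.3, which makes the alcohols that are polymerised, from 120.0 ± 15.0 to 611 ± 36.1 FPKM. Laccases, which oxidise these alcohols in the wall, were the list that served as xylem and secondary wall markers. Fasciclin-like arabinogalactan genes had also been planned as such markers. They were counted in a list of their own with other arabinogalactan genes, in which 4 of 11 rose and 7 fell (median -0.93). Of 8 tested laccase genes 6 rose and 2 fell (median 1.93), and their summed level went from between 75.8 and 109 FPKM to between 437 and 472 FPKM. The laccase gene Solyc09g010990.3 had 21.8, 14.0 and 15.2 FPKM at 6 h and 128, 134 and 119.6 FPKM at 10 days, a rise of 2.85. In bulk stems fewer cells of a type and less RNA per cell cannot be told apart, and the same holds for more.

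Cellulose genes changed in both directions. Of 21 genes of cellulose synthases and COBRA-like proteins, which help to order cellulose in the wall, 9 rose and 11 fell. The cellulose synthase genes Solyc02g072240.3, Solyc07g005840.2 and Solyc09g072820.4 rose from 48.8 ± 6.16, 79.7 ± 13.6 and 79.7 ± 13.2 FPKM to 311 ± 17.7, 387 ± 16.2 and 372 ± 11.1 FPKM. Another cellulose synthase gene, Solyc12g056580.2, went down from 198 ± 2.19 to 46.6 ± 7.46 FPKM. The COBRA-like gene Solyc03g114900.3 had 41.0, 28.9 and 33.8 FPKM at 6 h and 330.4, 325 and 355 FPKM at 10 days, a rise of 3.26 (SE 0.13), while Cobra-like protein 7 (Solyc01g065530.3) differed by -3.05. Among 11 fasciclin-like and other arabinogalactan genes, of wall glycoproteins, 4 rose and 7 fell; Solyc09g007660.1 went from 141, 113 and 132 FPKM to 686, 951 and 909 FPKM.

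Genes of the protein-making and dividing machinery were lower at 10 days. Of 77 genes of cytosolic ribosomal proteins 71 fell and 2 rose (median -1.06), and the 2 risers were a protein named L7a (Solyc06g064460.4) and the ribosome assembly factor MRT4 (Solyc01g104470.3). The summed level went from between 29740 and 32371 FPKM at 6 h to between 15171 and 18152 FPKM at 10 days. The 40S ribosomal protein S26 gene Solyc04g008810.3 had 424, 421 and 424 FPKM at 6 h and 111, 125 and 149.7 FPKM at 10 days, a difference of -1.72 (SE 0.12, limma adjusted p = 1.26e-05). Of 18 plastid and mitochondrial ribosomal protein genes 13 fell and none rose, while 2 rose with median ratio scaling. Of 32 cell cycle and replication genes 20 fell and 6 rose (median -0.65). CycD3.3 (Solyc04g078470.3), a cyclin of entry into division, had 22.5, 31.1 and 23.3 FPKM at 6 h and 1.40, 1.49 and 2.49 FPKM at 10 days.

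By count of genes, chromatin and microtubule lists also had more members lower than higher. Of 13 histone genes 9 fell and 2 rose, and histone H4 (Solyc11g072860.2) went from 321, 359 and 364 FPKM to 55.9, 50.1 and 68.2 FPKM. Of 45 tubulin and kinesin genes 30 fell and 8 rose (median -0.55), counts that became 20 and 11 with quantile normalization, and 8 and 7 of 17 genes when 5 FPKM were required. Without any one 6 h library 37 or 38 met the filter, of which 21 or 22 fell and 7 or 8 rose. A beta tubulin gene (Solyc03g118760.4) was the largest riser of that list, with 0.240, 0.200 and 0.280 FPKM at 6 h and 34.8, 32.5 and 23.6 FPKM at 10 days. The summed level of tubulin and kinesin genes did not fall, at 367 to 382 FPKM at 6 h and 377 to 425 FPKM at 10 days. That of histone genes went from between 2422 and 2808 FPKM to between 1957 and 2312 FPKM.

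Photosynthesis genes were mostly higher at 10 days. Of 63 tested genes 37 rose and 7 fell (median 0.48), and without library 3 of the 10 day group 35 rose and 10 fell. The chlorophyll a-b binding protein 1B gene Solyc02g071030.2, of the light-harvesting antenna, had 381, 306 and 375 FPKM at 6 h and 4853, 4830 and 4663 FPKM at 10 days, a rise of 3.76 (SE 0.11, limma adjusted p = 5.97e-07). Its values at both times depend on the reading of damaged digits, and genes of the 1B cluster are near copies whose reads may have been split. The green parenchyma markers, antenna and Rubisco small subunit genes that form part of the same list, summed to between 10940 and 12278 FPKM at 6 h and between 18330 and 22725 FPKM at 10 days.

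Sugar metabolism shifted within the family. Of 32 starch and sucrose genes 16 rose and 8 fell (median 0.39). The sucrose synthase gene Solyc09g098590.4 had 4.29, 3.08 and 3.91 FPKM at 6 h and 102, 94.6 and 74.7 FPKM at 10 days, a rise of 4.26 (SE 0.15), and the sucrose-phosphate synthase gene Solyc07g007790.3 rose from 29.2 ± 6.05 to 312 ± 98.7 FPKM. Invertases, which split sucrose, were among the fallers, with beta-fructofuranosidase Solyc10g083290.4 going from 9.21, 14.2 and 8.56 FPKM to 0.0900, 0.0800 and 0.170 FPKM. All 4 genes of raffinose family sugars, a list added after values had been seen, rose (median 2.79). Without library 1, 2 or 3 of the 10 day group 3 genes were tested, 2, 2 and 3 rose, and the medians were 1.18, 1.21 and 1.65. Galactinol synthase 2 (Solyc02g084980.3), which starts that pathway, had 1.60, 2.08 and 1.65 FPKM at 6 h and 77.4, 76.8 and 28.6 FPKM at 10 days.

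Ethylene synthesis changed gene by gene. The pathway runs from S-adenosylmethionine through 1-aminocyclopropane-1-carboxylate (ACC), made by ACC synthase, to ethylene, made by ACC oxidase. Of 9 genes tested 4 rose and 5 fell (median -0.74), and 4 and 4 of 8 without any one 6 h library, with medians of -0.07 to 0.03. The ACC oxidase gene Solyc02g036350.3 had 376, 423 and 409 FPKM at 6 h and 58.5, 60.9 and 28.7 FPKM at 10 days, a difference of -3.08 (SE 0.27, limma adjusted p = 4.42e-05). A second one, Solyc07g049550.3, went from 87.1, 115 and 98.9 FPKM to 0.890, 1.27 and 0.750 FPKM (difference -5.68), and ACC synthase Solyc02g091990.3 from 21.2, 22.0 and 32.2 FPKM to 1.83, 1.32 and 0.720 FPKM. In the opposite direction, ACC oxidase Solyc09g089580.4 rose from 28.0 ± 10.4 to 218 ± 97.1 FPKM and S-adenosylmethionine synthase 1 (Solyc01g101060.4), with values at both times that depend on the reading of damaged digits, from 743 ± 43.8 to 3651 ± 299 FPKM. Of 8 genes matched by name to ethylene signalling 3 rose and 2 fell, or 2 and 2 with library totals equalised. A faller, Solyc02g092050.3, was matched as AP2-like ethylene-responsive transcription factor ANT, so a place in that signalling is not shown by its name. Ethylene receptor 2 (Solyc07g056580.3) had 4.77, 3.85 and 4.21 FPKM at 6 h and 17.4, 16.3 and 14.2 FPKM at 10 days.

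Of the early auxin response genes that met the filter more were lower than higher. Of 15 SAUR genes, small auxin-induced RNAs tied to cell expansion, 12 fell and 1 rose (median -1.72). The SAUR gene Solyc01g110900.1 had 46.2, 36.6 and 53.7 FPKM at 6 h and 2 of its 10 day libraries were listed at 0, with 0.400 FPKM in the other. Many SAUR genes are near copies, so single values are uncertain. When a 6 h library was left out only 8 or 9 of the genes met the filter, 5 or 6 fell, and the median was -0.71, -1.42 or -0.95 without library 1, 2 or 3. The riser, Solyc01g096340.3, went from 28.9 ± 1.37 to 255 ± 51.4 FPKM. Of 12 Aux/IAA genes, repressors of auxin response, 7 fell and 2 rose (median -1.14, and -0.55 or -0.71 without library 2 or 3 of the 6 h group): Solyc09g083290.3 went from 384, 397 and 435 FPKM to 127, 134 and 92.9 FPKM, and Solyc03g120390.3 from 2.01, 2.25 and 2.71 FPKM to 45.6, 43.7 and 26.6 FPKM. Of 9 auxin response factor genes, which bind auxin-responsive promoters, 4 rose and none fell (median 0.53), and 4 to 7 rose and none fell under the alternatives tried. Of 7 genes of auxin transport and conjugation 5 fell and 1 rose.

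Other hormone lists had members in both directions. Among 11 gibberellin genes 4 rose and 5 fell (median -0.39), but 5 of 10 rose and 4 fell without library 3 of the 10 day group (median -0.05). The receptor gene GID1 (Solyc01g108540.3) rose from 4.24 ± 1.16 to 28.0 ± 5.93 FPKM while GAST1 and its relative Solyc03g116060.4, at 277, 314 and 231 FPKM and then 8.72, 10.4 and 10.7 FPKM, fell. Of 4 abscisic acid genes 2 rose and 2 fell. The receptor gene PYL4 (Solyc03g095780.3) had 61.8, 147 and 67.9 FPKM at 6 h and 0.920, 1.54 and 1.01 FPKM at 10 days, a difference of -5.33 (SE 0.32), the reverse of the dehydrin. The gene of abscisic acid 8'-hydroxylase (Solyc04g078900.3), which inactivates the hormone, had 7.70, 5.57 and 8.99 FPKM at 6 h and 38.8, 38.1 and 13.6 FPKM at 10 days. Among 14 jasmonate genes 4 rose and 7 fell (median -0.21), against shares of 34.8% and 43.8% over all genes tested. With median ratio scaling 6 rose and 6 fell. Without any one 6 h library 4 of 13 rose and 5 fell, with medians of -0.05, 0.09 and 0.10. Among 9 cytokinin genes 5 rose and 3 fell, and without any one 6 h library 4 of 8 rose and 1 or 2 fell. The response regulator gene Solyc05g014260.3 of that list had 22.0, 17.3 and 24.6 FPKM and then 231, 228 and 157 FPKM.

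Transcription factor families leaned in different directions. Of 14 NAC genes, a family that includes regulators of secondary walls and senescence, 10 rose and 1 fell (median 1.35); without library 1, 2 or 3 of the 10 day group 6, 7 and 6 of 11 rose and 1 fell, with medians of 0.78, 0.81 and 0.86. Of 30 homeobox genes 17 rose and 6 fell (median 0.49). AP2/ERF genes, which include ethylene response factors, went mostly the other way, with 16 of 28 lower and 5 higher (median -1.23). Without any one 6 h library 10 of 22 were lower and 5 higher, with medians of -0.13 to -0.21. Ethylene response factor 1 (Solyc06g065820.3) had 80.0, 92.6 and 79.8 FPKM at 6 h and 1.31, 1.07 and 1.95 FPKM at 10 days, a difference of -5.14 (SE 0.15, limma adjusted p = 5.97e-07). MYB genes (16 up and 13 down of 36) and WRKY genes (5 and 5 of 15) were divided. Of WRKY genes 3 of 13 rose and 6 fell without library 3 of the 10 day group, and 5 rose and 3 fell without any one 6 h library.

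Chaperone and clock genes were more often higher. Of 42 heat shock genes 23 rose and 12 fell (median 0.72). The small heat shock gene Solyc02g093600.3 had 3.34, 4.14 and 5.06 FPKM at 6 h and 269, 246 and 71.5 FPKM at 10 days, and small heat shock genes are alike enough that reads may be shared among them. Of 10 clock genes 7 rose and 1 fell (median 0.87); GIGANTEA (Solyc12g056650.2) had 13.1, 12.7 and 14.1 FPKM at 6 h and 56.9, 53.5 and 47.1 FPKM at 10 days. Clock transcripts cycle over the day, and the part of the hour of harvest in these differences was not tested.

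Water channels, receptors and proteases fell more often than they rose. Of 17 aquaporin genes, which let water through membranes, 11 fell and 3 rose (median -1.05), and Solyc12g044330.2 went from 1344, 1136 and 1720 FPKM to 135, 149.8 and 95.9 FPKM. Of 45 leucine-rich repeat receptor kinase genes 27 fell and 8 rose (median -0.72), and of 29 subtilase genes 19 fell and 6 rose. Fewer met the filter without any one 6 h library. Then 8 or 9 of 15 aquaporin genes fell and 2 or 3 rose. Of 40 receptor kinase genes 22 fell and 6 or 7 rose, and of 24 subtilase genes 14 or 15 fell and 6 rose. Of 5 mechanosensitive channel genes, whose proteins open when membranes are stretched, 3 rose and 1 fell: the piezo-type gene Solyc09g074110.4 had 3.95, 3.75 and 3.84 FPKM at 6 h and 9.93, 8.71 and 7.84 FPKM at 10 days, a rise of 1.01 (SE 0.11, limma adjusted p = 1.11e-04).

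**Figure D2:**
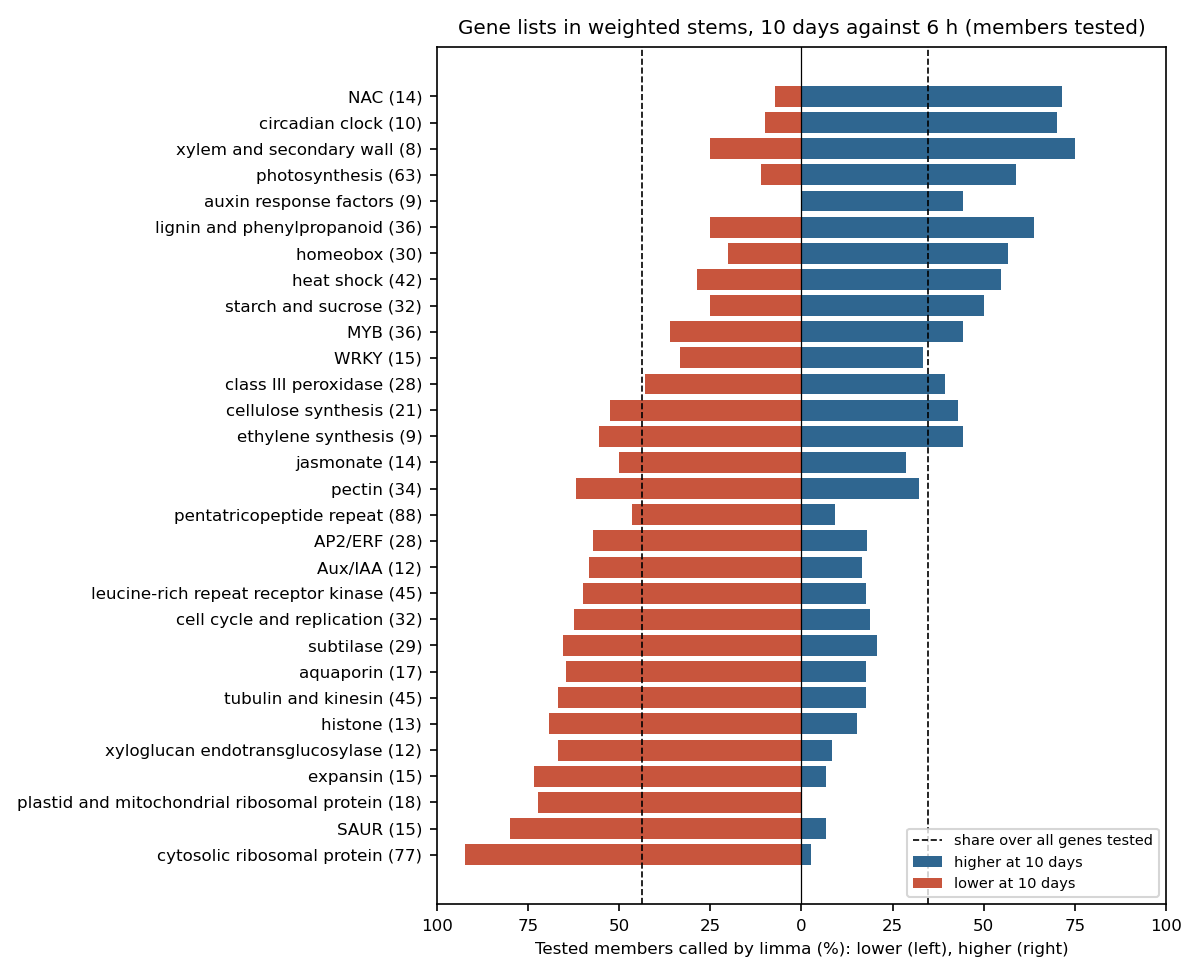
Share of the tested members of each gene list, in percent, that limma called higher (right) or lower (left) at 10 days than at 6 h in weighted stems, with the number of members tested after each name. Dashed lines mark the shares over all genes tested, 34.8% higher and 43.8% lower; of the lists shown, cytosolic ribosomal proteins reach furthest to the left and xylem marker (laccase), NAC, clock and lignin genes furthest to the right.

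Markers of tissues were detected at both times, and none of a listed tissue was at 0 in all weighted libraries. Genes matched to CASP, the Casparian strip proteins of the endodermis, had 5 of 9 members higher and 3 lower (median 1.72), with summed levels of 85.8 to 98.6 FPKM at 6 h and 447 to 702 FPKM at 10 days. The match takes in genes named CASP-like, and whether these mark the endodermis was not tested. Solyc11g012590.3, one of them, had 13.2, 14.2 and 16.7 FPKM at 6 h and 433, 409.6 and 304 FPKM at 10 days. Epidermis and cuticle markers had 5 of 17 members higher and 10 lower, and their sums went from between 868 and 1096 FPKM to between 1377 and 2557 FPKM. Of 5 phloem markers 2 rose and 3 fell. The list of cambium and meristem markers had 1 member, the CLAVATA1 receptor kinase gene Solyc04g076990.3. This gene had 66.5, 95.3 and 80.0 FPKM at 6 h and 14.1, 14.5 and 14.9 FPKM at 10 days. Which of these tissues it marks in stems was not tested. The ANT gene Solyc02g092050.3, which also fell, was counted under ethylene signalling and not in this list. The part of tissue makeup in the gene differences above was not tested.

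Many of these differences also separated young from older control stems. In control stems 3835 of 5730 genes (66.9%) differed between the same times, 1698 (29.6%) higher and 2137 (37.3%) lower at 10 days. Of 5656 genes tested in both, 4433 were called in weighted and 3778 in control stems, and 3010 were called in both in the same direction, 67.9% of the first and 79.7% of the second. The 2 comparisons share no library. Opposite directions were called for 97 genes, 60 of them higher at 10 days in weighted stems, and the difference of the time changes passed in all 97. Over 5881 genes in the fit of all 12 libraries, the time change of weighted stems differed from that of control stems in 2805 (47.7%), upward in 1505 (25.6%) and downward in 1300 (22.1%). These shares rest on tables of genes chosen for differing between weighted and control stems.

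Some lists changed in weighted stems to another extent than in controls. The time change was lower in weighted stems for 57 of 77 cytosolic ribosomal genes and higher for none, with medians of -1.06 in weighted and -0.38 in control stems. The same held for 11 of 15 SAUR genes and for 10 of 15 expansin genes, again with none higher. It was higher in weighted stems for 41 of 63 photosynthesis genes and lower for 1, with medians of 0.48 and -0.27. Tubulin and kinesin genes (36 of 45 higher, 1 lower) and cell cycle genes (23 of 32 higher, none lower) fell less in weighted than in control stems by their medians, -0.55 against -1.29 and -0.65 against -1.57. Among lignin genes 18 of 37 were higher and 3 lower, and among xylem marker laccases 6 of 8 were higher and 1 lower, whereas of 42 heat shock genes 1 was higher and 10 lower, a lower share close to the 22.1% over all genes. The medians of the heat shock time changes were 0.72 over 42 genes in weighted stems and 0.70 over 41 in control stems, and the median of their differences was -0.40. NAC, clock and raffinose family genes rose in control stems too. There 11 of 14 NAC genes and 7 of 10 clock genes were higher and none lower (medians 1.36 and 0.72), and all 4 raffinose genes were higher (median 2.37). The time change was higher in weighted stems for 3 NAC genes and 1 clock gene, and lower for 2 of each list.

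**Figure D3:**
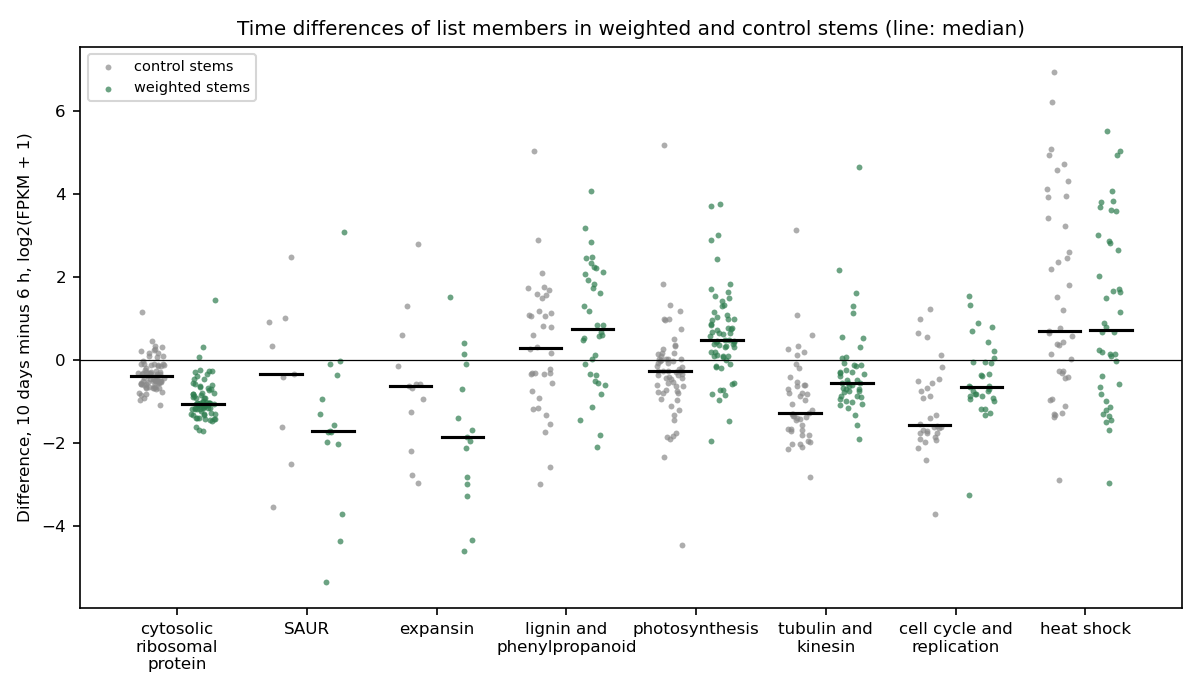
Difference between 10 days and 6 h, in log2(FPKM + 1), of each tested member of 8 gene lists in control stems (grey) and weighted stems (green), with the median as a line. Ribosomal, SAUR and expansin medians lie lower in weighted stems, photosynthesis, lignin, tubulin and cell cycle medians lie higher, and heat shock medians are 0.72 and 0.70. Control medians cover only members tested in control stems, 9 of 15 SAUR and 13 of 15 expansin genes, so these medians do not compare the same members.

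The genes whose time change departed most from that of control stems stood at different levels in weighted and control stems at 6 h. The choice of genes favours such a gap. These genes come from tables chosen for differences between weighted and control stems, and were picked by the size of the departure. ACC oxidase Solyc02g036350.3, at 376 to 423 FPKM in weighted stems at 6 h, had a mean of 21.0 FPKM in control stems, which then rose to 109.8 FPKM while weighted stems went to 28.7 to 60.9 FPKM; the difference of the time changes was -5.32 (limma adjusted p = 2.08e-04). The gene of inositol-3-phosphate synthase (Solyc04g054740.3), the first enzyme of inositol synthesis, had 15.4, 14.4 and 14.6 FPKM in weighted stems at 6 h and 505, 545 and 515 FPKM at 10 days, against means of 203 and 500.3 FPKM in control stems. Its difference of 3.75 (limma adjusted p = 1.39e-07) was the largest upward one among the named genes. At 10 days the levels of inositol-3-phosphate synthase in weighted and control stems overlapped, while those of the ACC oxidase in weighted stems lay below every control library. The chlorophyll a-b binding gene Solyc02g070950.1 had 39.2, 37.9 and 28.5 FPKM at 6 h and 262, 269 and 337 FPKM at 10 days in weighted stems, and means of 339.9 and 262 FPKM in control stems.

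**Figure D4:**
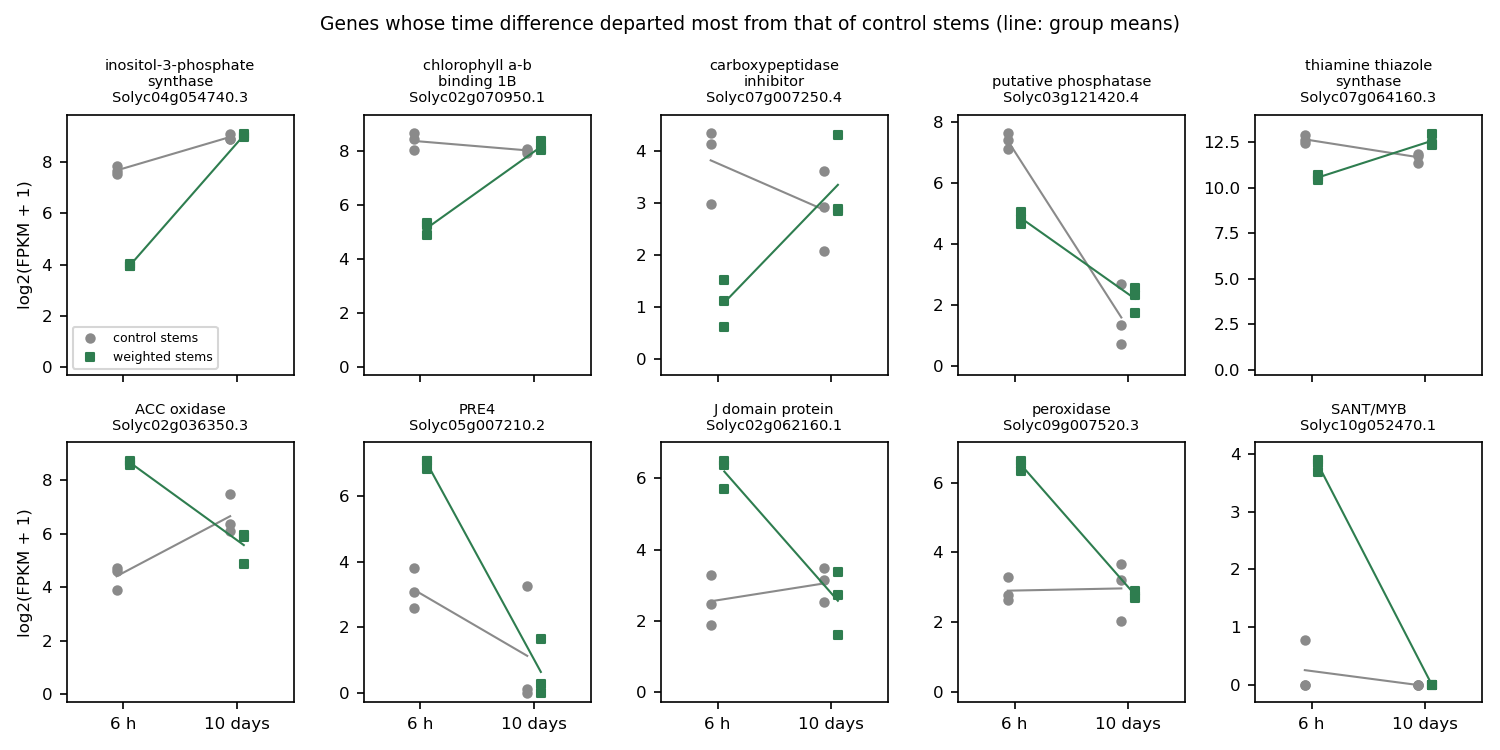
Levels, as log2(FPKM + 1), of the 10 named genes whose time change differed most between weighted stems (green squares) and control stems (grey circles), 1 point per library and lines between group means. The groups stand apart at 6 h in every panel and lie nearer to each other at 10 days, a pattern that the choice of these genes favours.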

How the data were processed

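RNA from tomato stems was sequenced, and the authors deposited FPKM values of all 12 libraries in 2 tables, of 5346 and 1146 genes with 372 in both. Reads were aligned with HISAT to a reference genome and with Bowtie2 to reference genes, per the labels' protocols; their versions, the genome build and how reads with several matches were counted: not given in the sources used here. Where legible, the authors' deposited Q values (q-value) lie under 0.05 for 3020 of 3020 genes of the 6 h table and 908 of 909 of the 10 day table. The deposited log2 ratios of the authors' own table served as a check; they lie about 0.12 below log2 ratios of mean FPKM for weighted stems at 10 days against 6 h. In the 6 h table separators and decimal marks were exchanged and were restored, and 91 genes needed a choice among readings, 79 of them in that table alone. The reading taken had the least spread within groups and lay nearest to the deposited ratios, so errors and p-values of these genes are not independent of that choice.

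Values were analysed as log2(FPKM + 1), so a fold change of low genes is understated. Tested genes reached 1 FPKM or more in 3 or more libraries of the fit. The tests were two-sided in limma 3.58.1 with a mean-variance trend in its empirical Bayes step, run in R 4.3.3, with Benjamini-Hochberg adjustment over all genes tested and a threshold of 0.05. The time difference used the 6 weighted libraries. The difference of the time changes was an interaction contrast over all 12, and control stems had a fit of their own. No exact permutation test was run, since its smallest p with 3 libraries a group is 0.1. P-values set the difference between groups against the spread between the libraries of a group, which limma estimates with information from all genes. The time fit and the interaction fit were tested on simulated data in which 200 genes changed by 1 on the log2 scale. The first recovered 157 of them (78.5%) and the second 116 (58%), each with 6 false calls. Far fewer genes changed in the simulation than were called here, and the fit of control stems was not simulated.

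The named genes are the 10 largest and 10 smallest differences of called genes that are annotated, have a higher group mean of 5 FPKM or more and show no overlap, up to 3 called members of each list, and the 5 largest and 5 smallest interaction contrasts. Other members of a list named in the text were chosen after their values were seen. The 50 gene lists, 7 marker lists and their members were chosen with earlier results of these data known; their name patterns were corrected after the names in the tables had been seen, and 4 lists were added after values had been seen. Names and domains are those of the tables; 0 identifiers matched the reference gene table, so no position or sequence is given. All per-sample columns were used. Tables used pandas 2.3.3 and numpy 2.4.6 under Python 3.11.15, and plots matplotlib 3.10.9.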

Additional observations from a re-analysis of the deposited data

Results flagged for a closer look

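For 10 genes the change from 6 h to 10 days differed most between weighted and control stems, by the limma interaction contrast over 12 libraries. The change was higher in weighted stems for inositol-3-phosphate synthase (Solyc04g054740.3, by 3.75), a chlorophyll a-b binding protein 1B gene (Solyc02g070950.1, by 3.36), a metallocarboxypeptidase inhibitor (Solyc07g007250.4, by 3.21), a putative phosphatase (Solyc03g121420.4, by 3.17) and thiamine thiazole synthase (Solyc07g064160.3, by 2.99). The thiamine gene had 1562, 1353 and 1665 FPKM in weighted stems at 6 h and 5226, 5490 and 8042 FPKM at 10 days, while control means went from 6519 to 3307 FPKM; its values are those of the 10 day table.

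The change was lower in weighted stems for an ACC oxidase (Solyc02g036350.3, -5.32), PRE4 (Solyc05g007210.2, -4.34), a DnaJ domain gene (Solyc02g062160.1, -4.14), a peroxidase (Solyc09g007520.3, -3.78) and a SANT/MYB gene (Solyc10g052470.1, -3.54). The peroxidase had 91.3, 80.1 and 97.8 FPKM in weighted stems at 6 h and 5.52, 6.39 and 5.79 FPKM at 10 days, and control means of 6.62 and 7.65 FPKM. The SANT/MYB gene had 11.8, 13.3 and 13.8 FPKM in weighted stems at 6 h and was listed at 0 in all 3 libraries at 10 days. These genes come from tables chosen for differences between weighted and control stems.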

How the results depend on the processing

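The count of genes that differed between the times in weighted stems was 4557, and 4029 to 4573 when each library was left out in turn; that of genes moved by at least 1 was 2263, and 2039 to 2219. The lower counts without a 6 h library go with fewer genes tested, 5529 to 5534. The share of called genes that were higher was 44.3%, and 40.1% to 49.8% over scalings; the lowest comes from lowering the 10 day values to the authors' ratios, an alternative chosen after seeing the data. For the difference from control stems the count was 2805, 2144 to 2932 without single libraries, and 4333 (2219 higher, 2114 lower) with array weights, whose estimate stopped before converging; the cause was not tested. Without library 2 of the 10 day controls the higher calls were 1402 of 2932, under the lower ones.

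Replicate numbers did not pair the samples: deviations of same-numbered libraries correlated at -0.0123, -0.0864 and -0.083. With the replicate number as a block 4370 genes were called, 2262 of at least 1, and 2496 for the difference from control stems.

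Of 3457 alternative values for named genes 3456 kept direction and call; beta-phellandrene synthase (Solyc08g005640.4) kept 0.85 but missed the threshold with all 12 libraries in the fit (limma adjusted p = 0.0682). Of 246 for interactions 245 did, the exception being PRE4 (-4.40 with a pseudocount of 0.1). A gene that a fit left out, such as one that no longer met the filter, gave no value there. The named genes were chosen among called genes with the largest differences, which favours such agreement. Of 1220 counts for lists 22 moved by over 1.5 times. Medians of class III peroxidase, WRKY, cytochrome P450, UDP-glycosyltransferase and pentatricopeptide genes cross 0 under other scalings. Depth is unknown, so no counting error is given.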

Other observations

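Class III peroxidases, wall enzymes that can stiffen or loosen walls, had 11 of 28 genes higher and 12 lower at 10 days in weighted stems (median -0.07), close to the shares over all genes tested of 34.8% and 43.8%. Without library 3 of the 10 day group 12 of 27 rose and 12 fell, and without any one 6 h library 10 or 11 rose and 10 fell. One member, Solyc10g084200.2, had 47.2, 48.5 and 52.0 FPKM at 6 h and was listed at 0, 0 and 0.0200 FPKM at 10 days. Of 19 genes of WAT1-related transporters, a list added after values had been seen, 10 fell and 4 rose; Solyc11g005350.2 went from 86.8, 77.3 and 91.8 FPKM to 3.94, 4.47 and 3.22 FPKM. Among 15 genes of proteinase inhibitors and wound defence 10 fell and 4 rose. The potato inhibitor I gene Solyc09g084450.3, which has near copies, had 45.5, 41.2 and 104 FPKM and then 0.810, 0.800 and 1.95 FPKM, while threonine dehydratase 2 (Solyc09g008670.3) rose from 1.06, 1.39 and 2.57 FPKM to 20.8, 18.3 and 13.2 FPKM.

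Lipid genes of the cuticle were divided as well. ECERIFERUM 3-like (Solyc03g117800.4), of wax synthesis, had 0.620, 0.970 and 0.650 FPKM at 6 h and 41.1, 41.5 and 25.1 FPKM at 10 days, whereas the lipid-transfer protein DIR1 relative Solyc03g121900.1 went from 48.3, 63.0 and 35.7 FPKM to 1.68, 2.93 and 1.56 FPKM. Pentatricopeptide repeat genes, for RNA processing in organelles, had 41 of 88 members lower and 8 higher, against 43.8% and 34.8% of all genes tested. These counts became 19 and 23 with quantile normalization, and 14 and 5 of 29 genes when 5 FPKM were required. Over all genes, 34 stood under 1 FPKM in every 6 h library and at 5 FPKM or more in every 10 day library, and 78 did the reverse. Genes of the 6 h table alone had a median of -0.25 (1481 higher and 2230 lower of 4673), and those of the 10 day table alone 0.30 (378 and 174 of 759).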
